A study of Homo sapiens with 48 samples.

Results

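The 8 libraries described here came from HEK293T cells of the DMSO vehicle arm, 4 collected at 3 h and 4 at 6 h, among the 48 RNA-seq libraries of the series. They were chosen by their labels and not by any measured value, and the levels of all 14685 genes in the count tables were compared between the 2 times. The series profiled RNA after T-REX of NCBP1, in which light releases the reactive lipid HNE from a probe bound to a Halo tag, so that HNE labels the protein fused to the tag. T-REX cells were set beside light alone, probe alone and DMSO cells at 3, 6 and 12 h, with 4 independent biological replicates for each arm and time. The DMSO cells received vehicle in place of the probe and no light. HEK293T is a human embryonic kidney line of epithelial-like cells, labelled wild type (WT) here, that carries the large T antigen of SV40, a viral protein that binds p53. As in the other arms, the DMSO cells had been transiently transfected with the plasmid pCS2+8-NCBP1-Halo, so both times hold cells that overproduce NCBP1, in a pool of transfected and untransfected cells. The labels use DMSO as a control for T-REX within each time, and state no question for 6 h against 3 h. Collection time cannot be told apart from any batch of culture, RNA preparation or sequencing that went with it.

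In the nucleus NCBP1 forms the cap-binding complex with the smaller NCBP2, and the complex holds the 5′ cap of new transcripts and hands them on to splicing, export and decay. The gene lists used here follow well-known programmes. Immediate early genes respond to growth factors within minutes. The tumour suppressor p53 turns on genes for cell cycle arrest, apoptosis and its own removal, and its main negative regulator MDM2 is among them. The unfolded protein response raises chaperones of the endoplasmic reticulum (ER), SREBP factors raise sterol synthesis, and MYC raises ribosome production.

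The libraries held 26482339 to 31999611 counts each, and mitochondrial transcripts took 8.33 to 8.53% of them. NCBP1 (ENSG00000136937), the gene on the plasmid, was measured at 52140, 46240, 61020 and 54590 CPM at 3 h and 51130, 54360, 47100 and 60980 CPM at 6 h, where CPM is each count as a share of the TMM-scaled library total, in parts per 1000000. It took 4.56 to 6.1% of each library's counts, and its level did not differ beyond the spread between replicates (log2 fold change -0.00 ± 0.1 (SE), adjusted p = 0.988). Of the single values per library, the share of counts in genes annotated as antisense was 0.784 ± 0.0117% at 3 h and 0.841 ± 0.0226% at 6 h (SD, n = 4), with exact two-sided permutation p = 0.0286, the smallest that 4 against 4 libraries allow. For the other 6 values p ran from 0.171 to 0.914. Of 15 genes that mark HEK293 cells 13 were listed, and their summed level was 1610 to 1660 CPM at 3 h and 1790 to 1840 CPM at 6 h, with 8 of them higher at 6 h. Of the markers of hepatocytes, blood, fibroblasts, endothelium and keratinocytes only COL1A1 was listed, and the fibroblast list summed to 2.69 to 5.34 CPM. Replicate 3 lay farthest from its group at both times, at a root mean square distance of 0.195 on the log2 scale at 3 h (0.151 to 0.175 for the others) and 0.235 at 6 h (0.164 to 0.201).

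Between 3 h and 6 h DMSO cells changed broadly but by small amounts. The lists of p53 targets, BMP and TGF-beta targets and immediate early genes held more genes that stood higher at 6 h than lower. Those of sterol synthesis, the ER stress response, ribosome production, glycolysis and SR splicing factors held more that stood lower. The sterol, ER stress and glycolysis counts shrank when some single libraries were left out. The glycolysis count also shrank when the spread between replicates came from 32 or 48 libraries, as given below. In all, 2419 of 14685 genes (16.5%) passed an adjusted p of 0.05 in edgeR's quasi-likelihood test, which is what called means throughout. Of these, 1298 (8.84%) were higher and 1121 (7.63%) lower at 6 h. The median size of a called change was 0.297 on the log2 scale, 34 genes rose by at least 2-fold, and 0 fell by as much. The CPM values of the 2 times did not overlap for 2961 genes (20.2%), and 2032 of these were called. The median log2 fold change of all genes was 0.0138 and shifted to 0.0411 when libraries were scaled by total counts alone, which gave 1546 higher and 850 lower calls (64.5% higher, against 53.7%). Offsets for GC content and transcript length, added after the data were seen, gave 1596 higher and 2215 lower calls (41.9% higher). With the replicate number as a block the count was 4543, of which 2406 were higher and 2137 lower. It was 1416 without 3 h replicate 2 and 1573 without 3 h replicate 4.

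The signed log2 fold change was related to the level of the gene. Across genes, which are not independent replicates, the log2 fold change and the mean count had a Spearman rho of -0.254. Its median was 0.11 in the fifth of genes with the lowest counts and -0.0518 in the fifth with the highest, where 225 genes rose and 594 fell. Against GC content rho was 0.148 and against exon length 0.0228 (14556 genes). Among 711 antisense genes 72 rose (10.1%) and 10 fell (1.41%), and among 570 lincRNA genes 49 rose (8.6%) and 9 fell (1.58%), both with low counts (medians of 105 and 113). Over all genes 8.84% rose and 7.63% fell. The shares that rose were thus near that of all genes, and the shares that fell were lower. The part of gene level and GC content in the results below was not tested gene by gene.

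The p53 targets were the list with the largest share of called members. Of its 25 genes 21 rose and 0 fell, with a median log2 fold change of 0.44 beside 0.0138 for all genes, and 17 to 22 rose when any single library was left out. The cell cycle inhibitor CDKN1A (ENSG00000124762), which encodes p21, was at 119, 107, 165 and 113 CPM at 3 h and 241, 226, 271 and 225 CPM at 6 h (log2 fold change 0.94 ± 0.15 (SE), adjusted p = 0.00776). Every 6 h library stood above every 3 h library, as the rule that named the gene required, and replicate 3 was the highest at both times. MDM2 (ENSG00000135679), the ligase that marks p53 for degradation, was at 564, 569.8, 678 and 622 CPM at 3 h and 1019, 978, 1068 and 1063 CPM at 6 h (log2 fold change 0.76 ± 0.056 (SE), adjusted p = 3.75e-08). The death receptor FAS (ENSG00000026103) was at 29.7, 29.9, 37.1 and 31.8 CPM at 3 h and 53.9, 55.1, 59.3 and 65.3 CPM at 6 h (log2 fold change 0.86 ± 0.079 (SE), adjusted p = 7.7e-07). Both sets of values were clear of each other, with no overlap between the times.

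Other p53 targets moved by similar amounts. BTG2, an antiproliferative factor that is also in the immediate early list, went from 69.8 to 121 CPM (log2 fold change 0.79 ± 0.11 (SE), adjusted p = 0.00237). SESN1, a sestrin that restrains mTORC1 signalling and is also among the FOXO targets, went from 51.3 to 75.4 CPM (log2 fold change 0.56 ± 0.054 (SE), adjusted p = 8.57e-07), with 3 h values of 49.5, 52.2, 52.7 and 50.7 CPM all below 6 h values of 72.7, 75.4, 76.7 and 76.7 CPM. BBC3, which encodes the apoptosis activator PUMA, was at 5.14, 4.3, 6.35 and 4.58 CPM at 3 h and 10.8, 7.29, 13.9 and 6.76 CPM at 6 h (log2 fold change 0.92 ± 0.23 (SE), adjusted p = 0.017). The secreted stress cytokine GDF15 was at 2.38, 2.73, 6.19 and 2.31 CPM at 3 h and 8.38, 6.7, 12.4 and 7.13 CPM at 6 h (log2 fold change 1.34 ± 0.37 (SE), adjusted p = 0.0482). For both genes the 6 h values were above all 3 h values, as the rule that named them required, but spread widely, with replicate 3 highest at each time. The call for BBC3 was lost without 3 h replicate 1, 2 or 4 or 6 h replicate 1 (adjusted p = 0.0511 to 0.0604) and when the spread came from 32 libraries (0.0634), and that for GDF15 without any 1 of 7 libraries, all but 3 h replicate 3 (adjusted p = 0.0577 to 0.128).

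Promoter stretches of a pair of p53 targets are shown because their starts carry a p53 half-site, the 10-base unit that p53 binds in pairs. Sequences are from RefSeq on GRCh38.p14, on the gene's strand, with the match in capitals. FAS lies on the plus strand (chr10:88991299-88991328, first base 122 bases before the start) and SESN1 on the minus strand (chr6:109009018-109009047, first base 49 bases before the start).
FAS: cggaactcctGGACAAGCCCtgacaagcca
SESN1: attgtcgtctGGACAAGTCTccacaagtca
Such a match, on either strand, was found in 5 of 32 windows of the 21 list genes with a window (15.6%), beside 873 of 15292 windows over all genes (5.71%), where a window spans 250 bases before to 50 after a start. It was in 7.16% of windows of genes called higher and 3.92% of those called lower. A match is a run of letters and says nothing of binding in these cells.

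**Figure D1:**
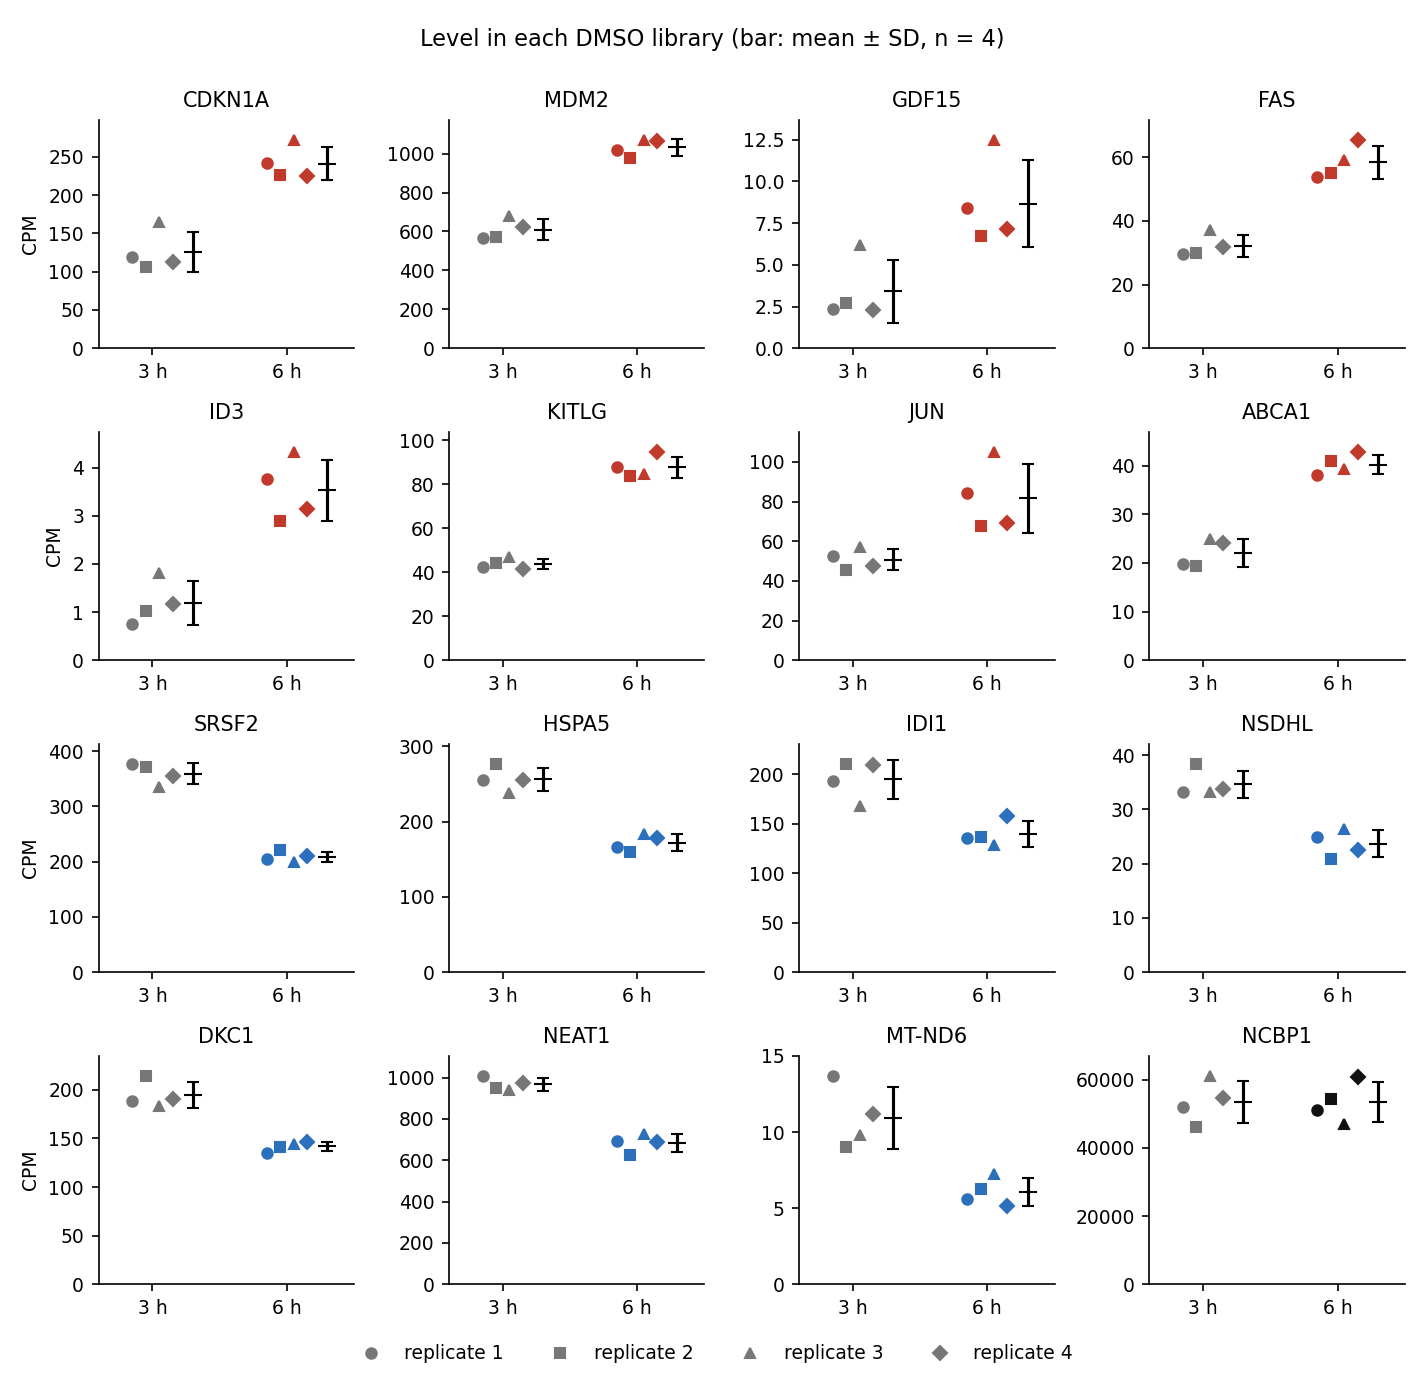
Levels (CPM, linear axes from 0) of 16 genes in each DMSO library at 3 h (grey) and 6 h (red if called higher, blue if called lower, black if not called), with symbols for replicates 1 to 4 and bars for mean ± SD (n = 4). In 15 of the panels the 6 h points are clear of the 3 h points, and for NCBP1 they overlap. The rule that named genes by size of change required this of CDKN1A, GDF15, KITLG, SRSF2, HSPA5 and MT-ND6.

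Targets of BMP and TGF-beta signalling also stood higher at 6 h. Of 16 genes 9 rose and 0 fell, with a median log2 fold change of 0.245, and 7 to 9 rose on leaving out single libraries. ID3, an inhibitor of helix-loop-helix transcription factors, had the largest named change. It was at 0.745, 1.02, 1.81 and 1.17 CPM at 3 h and 3.76, 2.9, 4.31 and 3.13 CPM at 6 h (log2 fold change 1.56 ± 0.25 (SE), adjusted p = 2.75e-04), low levels at which every 6 h library still exceeded every 3 h library. Its relative ID2 went from 61.1 to 83.9 CPM (log2 fold change 0.46 ± 0.062 (SE), adjusted p = 5.4e-05). SMAD6 and SMAD7 encode inhibitory SMADs that damp the pathway, and they went from 12.1 to 18.6 CPM (log2 fold change 0.62 ± 0.1 (SE), adjusted p = 4.49e-04) and from 8.07 to 11.7 CPM (log2 fold change 0.53 ± 0.12 (SE), adjusted p = 0.00559).

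Immediate early genes moved less uniformly. Of 31 tested, 10 rose and 1 fell, with a median of 0.288, and 7 to 13 rose on leaving out single libraries. The block gave 15 higher and 2 lower. JUN, a subunit of the AP-1 transcription factor, was at 52.8, 45.7, 57.3 and 47.4 CPM at 3 h and 84.6, 67.9, 105 and 69.2 CPM at 6 h (log2 fold change 0.68 ± 0.16 (SE), adjusted p = 0.0253). The 6 h libraries were all higher, replicate 3 most of all, and the call was lost without 3 h replicate 1, 2 or 4 or 6 h replicate 1 (adjusted p = 0.0559 to 0.0707). FOSL1, a partner of JUN, was at 5.68, 6, 8.4 and 5.86 CPM at 3 h and 9.76, 10.2, 9.23 and 10.3 CPM at 6 h (log2 fold change 0.60 ± 0.13 (SE), adjusted p = 0.00416). The synaptic gene ARC went from 1.34 to 2.57 CPM (log2 fold change 0.93 ± 0.23 (SE), adjusted p = 0.00773). The member that fell was MYC, from 72 to 62.5 CPM (log2 fold change -0.20 ± 0.061 (SE), adjusted p = 0.0246), a call lost without 3 h replicate 1 or 6 h replicate 1, 2 or 4 (adjusted p = 0.054 to 0.0989), with scaling by total counts (0.0628) or when the spread came from 32 or 48 libraries (0.138 and 0.0954). The cyclic AMP response element, a motif of such genes, was in 3 of 29 windows of the list (10.3%) and in 2.96% of all windows. Of the genes that held it, ZFP36L1 was called higher, and DUSP1 and JUND were not called.

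Signalling genes next to these lists rose in smaller numbers. Of 14 genes listed under ERK feedback 3 rose and 0 fell (median 0.249, 1 lower with the block), among them the ephrin receptor EPHA2, from 19.6 to 31.9 CPM (log2 fold change 0.70 ± 0.14 (SE), adjusted p = 0.00628), and the cytokine LIF, from 6.05 to 11.4 CPM (log2 fold change 0.91 ± 0.15 (SE), adjusted p = 3.86e-04). Of 17 genes listed under Notch and YAP 5 rose and 0 fell (median 0.221), 3 without 3 h replicate 2 or 4 and 9 with the replicate block. JAG1, a Notch ligand, was at 12.6, 15.2, 17.8 and 16.4 CPM at 3 h and 23.1, 23, 24.3 and 23 CPM at 6 h (log2 fold change 0.59 ± 0.097 (SE), adjusted p = 3.51e-04), and TEAD1, the DNA-binding partner of YAP, went from 196 to 261 CPM (log2 fold change 0.41 ± 0.042 (SE), adjusted p = 1.62e-06). Of 13 Wnt feedback genes 3 rose and 0 fell (median 0.146, 5 with the block), including LEF1, from 56.8 to 72.4 CPM (log2 fold change 0.35 ± 0.054 (SE), adjusted p = 2.02e-04). Of 19 FOXO targets 7 rose and 0 fell (median 0.19), including the receptor ERBB3 (log2 fold change 0.71 ± 0.16 (SE), adjusted p = 0.00456) and the transcriptional coregulator CITED2 (log2 fold change 0.53 ± 0.12 (SE), adjusted p = 0.00697). The FOXO count was 4 without 3 h replicate 1 or 4, 12 with scaling by total counts, 13 with the block and 13 without replicate 3 of both times.

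Genes with large called rises also included several outside any list, and ABCA1, which is a list member. KITLG, the ligand of the receptor KIT, was at 42.5, 44.2, 47 and 41.5 CPM at 3 h and 87.7, 83.7, 84.9 and 94.5 CPM at 6 h (log2 fold change 1.001 ± 0.06 (SE), adjusted p = 2.51e-09). Its values fell into 2 tight groups far apart. ABCA1, which exports cholesterol from the cell, was at 19.7, 19.4, 24.8 and 24.1 CPM at 3 h and 38, 40.9, 39.2 and 42.7 CPM at 6 h (log2 fold change 0.87 ± 0.085 (SE), adjusted p = 9.28e-07), and it was the 1 member to rise among 9 cholesterol efflux and LXR targets (median 0.104, 3 with the block). MAML3, a coactivator of Notch, was at 7.38, 6.89, 7.53 and 7.65 CPM at 3 h and 15.1, 16.3, 17.7 and 14.6 CPM at 6 h (log2 fold change 1.11 ± 0.11 (SE), adjusted p = 7.7e-07). The axon guidance receptor UNC5C (1.18 ± 0.14), the epithelial transcription factor GRHL3 (1.23 ± 0.16), the adhesion protein NECTIN4 (1.12 ± 0.16), FAM13C (1.07 ± 0.15), the antisense RNA HOXC13-AS (1.05 ± 0.19), the Wnt inhibitor CXXC4 (0.98 ± 0.093), the dynein DNAH6 (0.98 ± 0.088) and the neuronal transcription factor NHLH2 (0.98 ± 0.18) rose by similar log2 amounts (± SE, adjusted p of 4.13e-07 to 0.00151 in edgeR). Whether counting used strand is not given in the sources used here, so reads of HOXC13-AS and its sense partner may be mixed.

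Genes of sterol synthesis and uptake stood lower at 6 h. Of 24 tested, 0 rose and 12 fell, with a median log2 fold change of -0.202 (7 without 3 h replicate 2). NSDHL, an enzyme that removes a methyl group from sterol precursors, was at 33.2, 38.3, 33.2 and 33.7 CPM at 3 h and 24.8, 20.9, 26.4 and 22.5 CPM at 6 h (log2 fold change -0.55 ± 0.083 (SE), adjusted p = 1.54e-04). IDI1, the isomerase that prepares isoprene units, was at 193, 209.9, 168 and 209 CPM at 3 h and 136, 136, 128 and 158 CPM at 6 h (log2 fold change -0.48 ± 0.078 (SE), adjusted p = 0.00145). In both genes the lowest 3 h value was above the highest 6 h value, by a small margin for IDI1. HMGCS1, which makes HMG-CoA, went from 156 to 115 CPM (log2 fold change -0.44 ± 0.064 (SE), adjusted p = 1.94e-04). Among 17 genes of fatty acid synthesis 1 rose and 2 fell (median -0.0211, 3 higher with the block). The sterol regulatory element TCACNCCAC was in 1 of 23 windows of the sterol list (4.35%) and 0.968% of all windows. That window was of SREBF2, which was not called, so no called member of the list held the element.

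The ER stress response list held 0 risers and 11 fallers of 26 (median -0.167). The count was 4 without 3 h replicate 2, 5 without 3 h replicate 4 and 7 without 6 h replicate 1. HSPA5 (ENSG00000044574) encodes BiP, the main chaperone of the ER, and was at 255, 276, 238 and 254 CPM at 3 h and 166, 159.8, 184 and 179 CPM at 6 h (log2 fold change -0.57 ± 0.054 (SE), adjusted p = 7.7e-07). XBP1, a transcription factor of this response, was at 88.3, 80.1, 77.3 and 84.3 CPM at 3 h and 60.2, 63, 59.9 and 64.4 CPM at 6 h (log2 fold change -0.41 ± 0.056 (SE), adjusted p = 5.69e-05). For both the times did not overlap, which for HSPA5 the rule that named it required. CREB3L2, an ER-anchored transcription factor, went from 182 to 141 CPM (log2 fold change -0.37 ± 0.047 (SE), adjusted p = 2.84e-05). HERPUD1, which helps clear misfolded ER proteins, was at 32.3 ± 0.674 CPM at 3 h and 31.4 ± 1.18 CPM at 6 h (SD, n = 4) and was not called (log2 fold change -0.04 ± 0.067 (SE), adjusted p = 0.727).

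The ER stress response element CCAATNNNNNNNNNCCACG is shown for 4 members that hold it and were called lower. CALR and HSP90B1, chaperones of the ER lumen, are named here for this match, after their values had been seen. Capitals mark the element, read on the opposite strand for CALR, and sequences are RefSeq GRCh38.p14 on the gene's strand. Positions are chr9:125241385-125241414 (minus strand) for HSPA5, chr22:28800597-28800626 (minus) for XBP1, chr12:103930211-103930240 (plus) for HSP90B1 and chr19:12938379-12938408 (plus) for CALR, and all lie upstream of the start.
HSPA5: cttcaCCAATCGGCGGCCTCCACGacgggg
XBP1: gctggCCAATCGCGGAGGGCCACGaccgta
HSP90B1: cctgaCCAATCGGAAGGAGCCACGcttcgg
CALR: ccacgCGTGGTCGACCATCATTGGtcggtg
The element, searched on both strands, was in 6 of 26 windows of the list (23.1%) and in 17 of 15292 windows overall (0.111%). It was in 5 of 1174 windows of genes called lower (0.426%) and 0 of 1690 of genes called higher. The 5 include those of the 4 members shown, so this share is not separate from that of the list. HSP90B1 went from 555 to 496 CPM (log2 fold change -0.16 ± 0.053 (SE), adjusted p = 0.0381) and CALR from 296 to 260.5 CPM (log2 fold change -0.19 ± 0.049 (SE), adjusted p = 0.0127). The call for HSP90B1 was lost without 5 of the single libraries, namely 3 h replicates 1, 2 and 4 and 6 h replicates 1 and 2 (adjusted p = 0.0785 to 0.173). That for CALR was lost without 3 h replicate 2 or 4 (0.0575 and 0.0661). Both calls were also lost when the spread came from 32 or 48 libraries (0.118 and 0.0813 for HSP90B1, 0.074 and 0.0637 for CALR), and that of HSP90B1 with scaling by total counts (0.0611). The other members with the element, CRELD2 and PDIA6, were not called.

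The ATF4 branch, which answers amino acid shortage, did not move as a list. Of 14 regulators 1 rose and 2 fell (median 0.13, 3 higher with the block). ATF5, a transcription factor of the branch, was at 16.2, 16.4, 15.1 and 14.8 CPM at 3 h and 12.1, 9.35, 9.41 and 9.83 CPM at 6 h (log2 fold change -0.62 ± 0.11 (SE), adjusted p = 4.93e-04), and ATF3, induced by many stresses, went from 105 to 129.7 CPM (log2 fold change 0.31 ± 0.063 (SE), adjusted p = 0.00252). ATF4 went from 371 to 332 CPM (log2 fold change -0.16 ± 0.045 (SE), adjusted p = 0.0209), a call lost without 3 h replicate 1 or 4 or 6 h replicate 1 (adjusted p = 0.0612 to 0.0767), with GC and length offsets (0.109) or with the spread of 32 or 48 libraries (0.0754 and 0.0615). Amino acid and one-carbon synthesis had 0 risers and 6 fallers of 19 (median -0.169, 10 with the block), including MTHFD2, a mitochondrial folate enzyme, from 112 to 85 CPM (log2 fold change -0.39 ± 0.061 (SE), adjusted p = 2.5e-04), and PSAT1, of serine synthesis, from 149 to 119 CPM (log2 fold change -0.33 ± 0.062 (SE), adjusted p = 0.00125). Of 20 cytosolic aminoacyl-tRNA synthetases 7 fell and 0 rose (median -0.106), among them the glycyl enzyme GARS1, from 252 to 213 CPM (log2 fold change -0.24 ± 0.057 (SE), adjusted p = 0.00642), whose times overlapped. That count was 4 without any 1 of 3 h replicates 1, 2 and 4 and 6 h replicate 1, 4 with scaling by total counts, 11 with the block and 12 with GC and length offsets. Of 21 amino acid transporters 1 rose and 3 fell (median -0.0246, 2 higher with the block, 5 lower with the block or the offsets), including the arginine transporter SLC7A1, from 332 to 260.3 CPM (log2 fold change -0.35 ± 0.052 (SE), adjusted p = 1.47e-04).

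Ribosome production stood lower at 6 h. Of 31 ribosome biogenesis genes 16 fell and 0 rose, with a median of -0.176, and 13 to 19 fell on leaving out single libraries. DKC1, the pseudouridine synthase of box H/ACA particles, was at 189, 214, 184 and 191 CPM at 3 h and 135, 142, 144 and 146 CPM at 6 h (log2 fold change -0.45 ± 0.052 (SE), adjusted p = 7.41e-06). POLR1B, a core subunit of RNA polymerase I, went from 148 to 109 CPM (log2 fold change -0.44 ± 0.056 (SE), adjusted p = 2.8e-05), and the nucleolar protein NOP16 from 22.4 to 15.6 CPM (log2 fold change -0.52 ± 0.095 (SE), adjusted p = 7.77e-04). In each of these genes every 6 h library was below every 3 h library.

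The E-box CACGTG, to which MYC and related factors bind, is shown for LYAR, a nucleolar regulator, and for DDX21, a nucleolar helicase that was named for this match after its values had been seen. Capitals mark the element (RefSeq GRCh38.p14, gene's strand, upstream of the start), at chr4:4290068-4290097 on the minus strand for LYAR and chr10:68956604-68956633 on the plus strand for DDX21.
LYAR: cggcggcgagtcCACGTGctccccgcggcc
DDX21: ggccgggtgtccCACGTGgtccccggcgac
It was in 13 of 32 windows of the list (40.6%), 9.25% of all windows, 13.2% of windows of genes called lower and 7.22% of those of genes called higher. Of the other list genes with an E-box, BYSL, GNL3, PES1 and WDR43 were called lower. FBL, GAR1, MYBBP1A, NOP10, RRP9, UTP20 and UTP4 also held it and were not called. LYAR was at 44, 48.5, 44.6 and 46.7 CPM at 3 h and 34.9, 33.9, 35.1 and 33.2 CPM at 6 h (log2 fold change -0.42 ± 0.063 (SE), adjusted p = 1.36e-04), and DDX21 at 610.5, 628, 521 and 619 CPM at 3 h and 508, 476, 432 and 512 CPM at 6 h (log2 fold change -0.30 ± 0.064 (SE), adjusted p = 0.00424). For both, the 6 h values lay below all 3 h values.

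Cytosolic ribosomal protein genes moved less. Of 79, 0 rose and 11 fell (median -0.0473). Their median count was 5910, and of the 2937 genes with the highest counts 594 fell (median -0.0518). The list thus did not stand apart from other abundant genes. The count ran from 6 without 3 h replicate 2 (7 without 3 h replicate 4 or 6 h replicate 1) to 24 without 6 h replicate 3, was 34 without replicate 3 of both times, and was 2 and 4 when the spread came from 32 or 48 libraries. The block gave 6 higher and 20 lower. GC and length offsets gave 19 lower. RPS14 went from 437 to 360.5 CPM (log2 fold change -0.28 ± 0.046 (SE), adjusted p = 3.46e-04), and was not called with the spread of 32 or 48 libraries (0.244 and 0.262). Of 20 snoRNA host genes 5 fell and 0 rose (median -0.151, 3 without 3 h replicate 1, 2 or 4 and 8 with the block), including SNHG16, from 327 to 249 CPM (log2 fold change -0.39 ± 0.048 (SE), adjusted p = 1.65e-05), and GAS5, from 117 to 99.1 CPM (log2 fold change -0.24 ± 0.053 (SE), adjusted p = 0.00409).

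The SR splicing factors, which bind exons and help define splice sites, held the largest named fall of a protein-coding gene above 100 CPM. Of 23 SR factors and CLK kinases 8 fell and 2 rose (median -0.0878). The median count of the list was 7030, and the fifth of genes with the highest counts had a median log2 fold change of -0.0518. The examples that follow all fell, and the 2 risers are not among them. SRSF2 (ENSG00000161547) was at 376, 372, 335 and 354 CPM at 3 h and 204, 222, 199.5 and 210 CPM at 6 h (log2 fold change -0.78 ± 0.049 (SE), adjusted p = 3.62e-09). The values formed 2 tight groups with a wide gap. SRSF6 was at 241, 274, 246 and 257 CPM at 3 h and 175, 178, 164 and 191 CPM at 6 h (log2 fold change -0.52 ± 0.053 (SE), adjusted p = 1.48e-06), again with no overlap. The splicing coactivator SRRM1 went from 450 to 331 CPM (log2 fold change -0.44 ± 0.043 (SE), adjusted p = 8.38e-07), and SON, a scaffold of nuclear speckles, from 926 to 764 CPM (log2 fold change -0.28 ± 0.051 (SE), adjusted p = 9.77e-04). The tables give gene totals, so a shift between productive and unproductive isoforms was not measured.

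The cap-binding partners of NCBP1 moved little. Of 16 genes of the cap-binding complex and its partners 1 fell and 0 rose (median -0.0166, 2 lower with the block). That member was NCBP3, an alternative partner of NCBP1, at 148, 151, 143 and 148 CPM at 3 h and 129, 125, 127 and 130 CPM at 6 h (log2 fold change -0.21 ± 0.045 (SE), adjusted p = 0.0032). NCBP2, the subunit that holds the cap, was at 33.1 ± 1.25 CPM at 3 h and 30.9 ± 3.41 CPM at 6 h (SD, n = 4) and was not called (log2 fold change -0.10 ± 0.079 (SE), adjusted p = 0.412). Of 18 nonsense-mediated decay factors 4 fell and 0 rose (median -0.0713, 6 lower and 2 higher with the block), including EIF4A3, the helicase of the exon junction complex, from 63.4 to 50.4 CPM (log2 fold change -0.33 ± 0.06 (SE), adjusted p = 8.72e-04). The median count of the decay factors was 2340, and of the 2937 genes with the highest counts 594 fell (median -0.0518), a similar share.

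Glycolysis had 9 fallers and 0 risers among 20 genes (median -0.159, 1 higher with the block). PGK1, phosphoglycerate kinase, was at 309, 331, 274 and 305 CPM at 3 h and 243, 257, 255 and 240.5 CPM at 6 h (log2 fold change -0.29 ± 0.053 (SE), adjusted p = 7.91e-04), and LDHA, lactate dehydrogenase, at 673, 680.5, 560.3 and 639.9 CPM at 3 h and 521, 565, 513 and 524 CPM at 6 h (log2 fold change -0.27 ± 0.056 (SE), adjusted p = 0.00309), where 3 h replicate 3 lay among the 6 h values. The count was 4 without 3 h replicate 2 or 6 h replicate 1, 5 with scaling by total counts, and 2 and 1 when the spread came from 32 or 48 libraries, which also ended the calls of PGK1 (adjusted p = 0.117 and 0.0779) and LDHA (0.0852 and 0.0677). Of 29 hypoxia targets 5 rose and 2 fell (median 0.073, 3 higher without 3 h replicate 2). Of 11 polyamine genes 2 fell (median -0.108, 1 higher with the block, 4 lower with the block or the GC and length offsets), including AMD1, which makes the aminopropyl donor, from 498 to 389 CPM (log2 fold change -0.36 ± 0.059 (SE), adjusted p = 4.52e-04). The median count of the polyamine list was 2860, and of the 2937 genes with the highest counts 594 fell, a similar share.

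Cell cycle genes changed in part. Of 35 mitosis genes 10 fell and 1 rose (median -0.113), 20 fell and 3 rose with the block, 18 with GC and length offsets and 19 without replicate 3 of both times. AURKB, a kinase of the chromosomal passenger complex, was at 58.8, 57.1, 59.2 and 59.1 CPM at 3 h and 44.9, 46, 49.2 and 42.9 CPM at 6 h (log2 fold change -0.36 ± 0.059 (SE), adjusted p = 3.88e-04). The riser was HMMR, a spindle protein, at 65.6, 69.5, 67.9 and 69.97 CPM at 3 h and 85.4, 85.8, 80.0 and 90.7 CPM at 6 h (log2 fold change 0.32 ± 0.054 (SE), adjusted p = 3.86e-04). Each was clear of overlap. Of 31 G1/S and replication genes 6 fell and 1 rose (median -0.0773). The median count of this list was 2880, and of the 2937 genes with the highest counts 594 fell (median -0.0518). The G1/S falls thus did not stand apart from other abundant genes. The 6 became 3 without 3 h replicate 1, 2 or 4 or 6 h replicate 1, 13 with the block (and 5 higher) and 12 with the offsets. RRM2, a subunit of ribonucleotide reductase, went from 252 to 189 CPM (log2 fold change -0.41 ± 0.051 (SE), adjusted p = 2.19e-05). Of 37 replication-dependent histone genes 1 rose and 2 fell (median 0.125), with 10 higher under the block and 4 lower without 6 h replicate 3, without replicate 3 of both times or with the offsets. H1-3 was at 37.8, 33.9, 33.5 and 33.4 CPM at 3 h and 52.2, 58.1, 50.5 and 46.6 CPM at 6 h (log2 fold change 0.58 ± 0.072 (SE), adjusted p = 2.13e-05), while H2BC21, whose transcript is also known in a polyadenylated form, was at 242, 252, 241 and 262 CPM at 3 h and 195, 180.3, 208 and 173 CPM at 6 h (log2 fold change -0.40 ± 0.054 (SE), adjusted p = 5.57e-05, and 0.0518 with the spread of 32 libraries).

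Cytosolic heat shock genes were split. Of 20 tested, 4 rose and 1 fell (median 0.0819, 7 higher with the block or with GC and length offsets). The chaperones HSPA8 and HSP90AA1 went from 1450 to 1652 CPM (log2 fold change 0.19 ± 0.044 (SE), adjusted p = 0.00542) and from 1040 to 1223 CPM (log2 fold change 0.23 ± 0.046 (SE), adjusted p = 0.00146), and HSPA8 was not called with the spread of 32 or 48 libraries (0.0671 and 0.0517). The faller was DNAJB1, a heat-inducible cochaperone, from 186 to 149.9 CPM (log2 fold change -0.31 ± 0.051 (SE), adjusted p = 3.22e-04).

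Among noncoding and mitochondrial RNAs, NEAT1, the long RNA that builds paraspeckles, was at 1006, 949.8, 938 and 974 CPM at 3 h and 692, 623, 728 and 688 CPM at 6 h (log2 fold change -0.50 ± 0.049 (SE), adjusted p = 9.68e-07). PVT1, a long RNA transcribed next to MYC, was at 105, 102, 124 and 114 CPM at 3 h and 149.9, 148, 168 and 162 CPM at 6 h (log2 fold change 0.50 ± 0.06 (SE), adjusted p = 2.13e-05). The times were separate for both. Of 10 long nuclear noncoding RNAs 1 rose and 2 fell (median -0.0356, 3 higher with the block). Of 13 mitochondrial transcripts 1 rose and 2 fell (median -0.031), and 4 fell with the block (2 higher), without 6 h replicate 3 or without replicate 3 of both times and 5 with the offsets. MT-ND6, a complex I subunit encoded on the light strand of mitochondrial DNA, was at 13.7, 9.04, 9.82 and 11.2 CPM at 3 h and 5.62, 6.23, 7.25 and 5.11 CPM at 6 h (log2 fold change -0.85 ± 0.14 (SE), adjusted p = 4.44e-04, and 0.0673 with the spread of 32 libraries). Its reads cannot be told apart from those of the opposite strand without strand counting.

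Other genes named for the largest called falls lay outside these lists. They included NAP1L3 (-0.78 ± 0.14), the proteasome assembly factor PSMD9 (-0.67 ± 0.12), the BAFF receptor TNFRSF13C (-0.65 ± 0.13), CYP27B1, which activates vitamin D (-0.63 ± 0.12), and the lipid transporter MFSD2A (-0.59 ± 0.14), each as log2 fold change ± SE with an adjusted p of 0.000643 to 0.00701 in edgeR. The rule that named them required a call and no overlap between times. With them stood the taste receptor TAS2R13 (-0.59 ± 0.13), the RNA polymerase II subunit gene POLR2J2 (-0.69 ± 0.14), TIMM23B (-0.61 ± 0.17) and the noncoding RNAs ALMS1-IT1 (-0.57 ± 0.14), SND1-IT1 (-0.59 ± 0.16) and LINC01772 (-0.77 ± 0.18). POLR2J2 and TIMM23B have near-identical copies in the genome, so their counts are uncertain, and reads of ALMS1-IT1 and SND1-IT1 may be those of the genes around them. The call for TIMM23B was lost without 3 h replicate 1 or 4 or 6 h replicate 3 (adjusted p = 0.0546 to 0.0618), and that for SND1-IT1 without 3 h replicate 1 or 4.

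The most abundant genes called lower fell by small amounts. MT-CO2, a mitochondrial subunit of cytochrome c oxidase, was at 6889, 7356, 6852 and 7012 CPM at 3 h and 6171, 6179, 6468 and 6272 CPM at 6 h (log2 fold change -0.16 ± 0.043 (SE), adjusted p = 0.0115). EEF1A1, the elongation factor that brings aminoacyl-tRNA to the ribosome, went from 2984 to 2657 CPM (log2 fold change -0.17 ± 0.046 (SE), adjusted p = 0.0163), the glycolytic enzyme GAPDH from 1856 to 1582 CPM (log2 fold change -0.23 ± 0.059 (SE), adjusted p = 0.0128), the ribosome scaffold RACK1 from 1644 to 1453 CPM (log2 fold change -0.18 ± 0.056 (SE), adjusted p = 0.0362) and PRRC2C from 1499 to 1303 CPM (log2 fold change -0.20 ± 0.046 (SE), adjusted p = 0.00514). Of these, PRRC2C alone kept its call without each single library and under each alternative run. MT-CO2, EEF1A1, GAPDH and RACK1 lost theirs without 1, 4, 2 and 5 of the single libraries (adjusted p = 0.0536 to 0.116), 3 h replicate 2 among them for each, and when the spread came from 32 or 48 libraries (0.0775 to 0.239). Scaling by total counts also ended the calls of GAPDH and RACK1 (0.0557 and 0.0629), and GC and length offsets that of RACK1 (0.19). Among the most abundant genes called higher were ENAH, an actin regulator, from 885 to 1012 CPM (log2 fold change 0.19 ± 0.051 (SE), adjusted p = 0.0129), whose call was lost without 6 h replicate 1 or 2 (0.0514 and 0.0555), and KMT2C, a histone methyltransferase, from 818 to 940.5 CPM (log2 fold change 0.20 ± 0.045 (SE), adjusted p = 0.0042).

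Several stress lists held few called genes. For NRF2 targets, which answer electrophiles, 1 of 22 fell and 0 rose (median 0.00452, 5 lower and 2 higher with the block). Of 10 interferon response genes (median 0.149) and 10 NF-kappaB targets (median 0.166) 0 passed edgeR's test. At an unadjusted p of 0.05 the interferon list had 2 higher and 0 lower and the NF-kappaB list 2 higher and 1 lower, DESeq2 called 1 higher in each, and limma-voom 0. With the block the interferon list had 2 higher and the NF-kappaB list 2 higher and 1 lower. Of 15 iron and metallothionein genes 1 rose (median 0.0147, 5 higher and 3 lower with the block), of 31 lysosome and autophagy genes 1 rose and 1 fell (median 0.00479, 4 higher and 2 lower with the block), of 20 circadian clock genes 3 rose and 1 fell (median 0.0598, 3 lower with the block), of 7 MondoA targets 1 fell (median 0.0894, 1 higher and 2 lower with the block), and of 9 small structured noncoding RNAs 1 rose (median 0.223, 4 with the block). A missed threshold does not show that these genes were equal at the 2 times.

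The 3 other arms were collected at the same times from their own libraries, so each gives the 3 h to 6 h change without sharing a library with the DMSO cells. Probe alone cells had 13.6% of genes higher and 13.6% lower, light alone cells 8.43% and 4.47%, and T-REX cells 8.04% and 5.13%. Of the 2419 genes called in DMSO cells, 1747 were called in the same direction in probe alone (72.2% of the DMSO calls and 43.6% of the probe alone calls), 950 in T-REX (39.3% and 49.1%) and 863 in light alone (35.7% and 45.5%). Calls in opposite directions numbered 0, 0 and 1. The sign of the log2 fold change was shared for 97.8%, 90.8% and 87.4% of the DMSO calls. In all 4 arms 602 genes were called in 1 direction, 418 higher and 184 lower. Any batch that goes with collection time is common to the arms.

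No gene passed the test for a different change between DMSO cells and another arm (0% called in each of 3 comparisons, edgeR interaction of arm and time over 32 libraries). At an unadjusted p of 0.05 the DMSO change differed from light alone for 2453 genes (16.7%), from T-REX for 2019 (13.7%) and from probe alone for 606 (4.13%). The smallest adjusted p was 0.0518, 0.0797 and 0.99, in the same order. DESeq2 called 214 genes against light alone, 31 against T-REX and 0 against probe alone. With the replicate block the counts were 45, 3 and 0, and without DMSO 3 h replicate 3 they were 130, 8 and 0. Leaving out single libraries of the other arm, added after the data were seen, gave 0 to 453 genes against light alone, 0 to 1 against T-REX and 0 against probe alone. The 453 came without light alone 6 h replicate 4, and light alone 3 h replicate 4 and 6 h replicate 1 gave 19 and 10. NCBP1 itself changed by -0.00 in DMSO, 0.36 in probe alone (adjusted p = 0.0157 in edgeR), -0.07 in T-REX (0.753) and -0.55 in light alone (0.0241), and its part in the values of the arms was not tested.

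The p53 targets had unlike counts in the 4 arms. They held 21 risers in DMSO cells (median 0.44) and 21 risers with 1 faller in probe alone (median 0.422), but 11 risers in T-REX (median 0.217) and 3 in light alone (median 0.0559). The DMSO change was the larger at an unadjusted p of 0.05 for 18 of 25 members against light alone, 9 against T-REX and 0 against probe alone, and the smaller for 0 in each. None passed the adjusted test. With DESeq2 6 members passed against light alone and 1 against T-REX, with the replicate block 3 and 0, and without DMSO 3 h replicate 3 the counts were 6 and 0. Without light alone 6 h replicate 4 or replicate 1 they were 6 and 1 against light alone. On leaving out single libraries of each arm, the risers numbered 1 to 7 in light alone (7 without 6 h replicate 2), 7 to 12 in T-REX and 20 to 21 in probe alone. MDM2 changed by 0.76 in DMSO, 0.61 in probe alone, 0.28 in T-REX and 0.22 in light alone on the log2 scale, and its difference between DMSO and light alone was 0.55 (adjusted p = 0.0732 in edgeR). CDKN1A changed by 0.94, 0.84, 0.50 and 0.24 in the same order. At 3 h, on a scale set over all 48 libraries, CDKN1A was at 119, 107, 166 and 114 CPM in DMSO, 108, 106, 109 and 131 CPM in probe alone, 105, 109, 162 and 159.5 CPM in T-REX and 155, 172, 178 and 109 CPM in light alone. Light alone replicates 1 to 3 and T-REX replicates 3 and 4 stood high among these, as did DMSO replicate 3. At 6 h light alone was at 209, 165, 152 and 199 CPM, against 243, 228, 273 and 226 CPM in DMSO. The part of these 3 h libraries in the counts of the arms was tested only by leaving each out singly. FAS changed by 0.86, 0.88, 0.64 and 0.53.

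**Figure D2:**
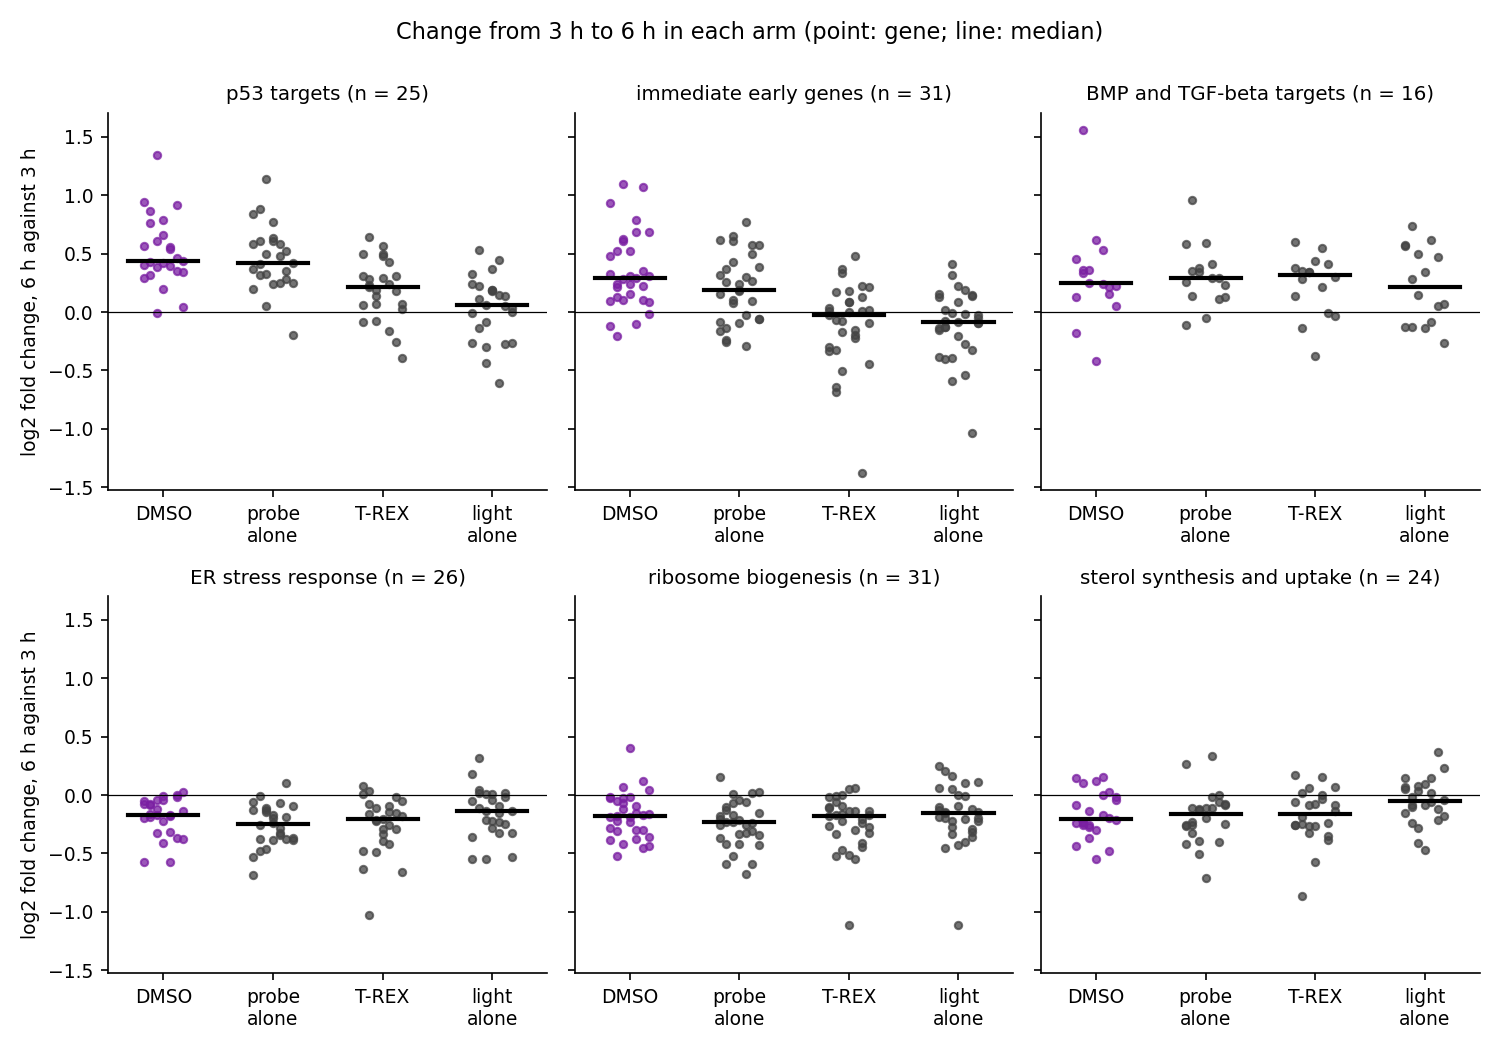
Log2 fold change at 6 h against 3 h of each gene (points) in DMSO (purple), probe alone, T-REX and light alone cells (grey), for 6 gene lists, with lines at the medians. For p53 targets the median is 0.44 in DMSO and 0.0559 in light alone, and for ER stress response, ribosome biogenesis and sterol synthesis all 4 medians are below 0.

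Immediate early genes were alike in this. In probe alone 10 rose and 2 fell, in T-REX 2 rose and 1 fell, and in light alone 0 rose and 0 fell in edgeR's test (2 higher and 1 lower at an unadjusted p of 0.05). The DMSO change was the larger at an unadjusted p of 0.05 for 12 of 31 members against light alone, 11 against T-REX and 2 against probe alone, and none passed the adjusted test. In DESeq2 1 member passed against light alone, as did 1 without DMSO 3 h replicate 3, with 0 against T-REX in both. On leaving out single libraries of the arm, 0 to 1 rose in light alone, 1 to 4 in T-REX (4 without 3 h replicate 3) and 7 to 11 in probe alone. JUN changed by 0.68 in DMSO, 0.30 in probe alone, -0.22 in T-REX and -0.02 in light alone. At 3 h it was at 53.1, 46, 57.7 and 47.7 CPM in DMSO, 56.9, 49.5, 54.9 and 48.5 CPM in probe alone, 56.5, 57.4, 114 and 89.3 CPM in T-REX and 47.1, 85.4, 81.9 and 43 CPM in light alone, on the scale of all 48 libraries. Replicates 3 and 4 of T-REX and replicates 2 and 3 of light alone were above all the others. Ribosome biogenesis genes fell in each arm, 16 in DMSO, 21 in probe alone, 12 in T-REX and 8 in light alone. HSPA5 changed by -0.57, -0.68, -0.64 and -0.55 in that order, SRSF2 by -0.78, -0.77, -0.64 and -0.49, and KITLG by 1.001, 0.95, 0.74 and 0.72. Mitosis genes had a lower DMSO change at an unadjusted p of 0.05 for 13 of 35 members against light alone and 10 against T-REX, and sterol genes for 8 of 24 against light alone.

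The genes named by the smallest interaction p follow, with each difference given as DMSO minus the other arm. PLXDC2, a membrane receptor, changed by 0.35 in DMSO and 0.99 in light alone (difference -0.63, adjusted p = 0.0518 in edgeR). HERPUD1 changed by -0.04 in DMSO and -0.55 in light alone (difference 0.52, adjusted p = 0.0518). CREG1, a secreted glycoprotein, changed by -0.17 and 0.39. SLITRK5, a synaptic membrane protein, changed by 0.17 and 0.71, and its call in DMSO cells was lost without any 1 of 6 libraries, all but 3 h replicate 1 and 6 h replicate 3 (adjusted p = 0.0511 to 0.133) and with the spread of 32 or 48 libraries (0.129 and 0.111). Against T-REX, the cyclin CCND2 came first, at -0.01 in DMSO and 0.41 in T-REX (difference -0.43, adjusted p = 0.0797). With the replicate block it passed, as did the glutamine transporter SLC38A1 (-0.09 and 0.23). The neuronal microtubule protein MAP1B changed by 0.12 and 0.45, and the nucleotide kinase CMPK1 by -0.28 and 0.15. Against probe alone, the tyrosine kinase SYK changed by 0.33 in DMSO and -0.32 in probe alone (adjusted p = 0.99 for the difference). CREG1, MAP1B, SLC38A1 and SYK were not called between the times in DMSO cells, and with the replicate block they were (adjusted p = 0.0157, 0.00425, 0.022 and 0.0247).

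DMSO cells were also collected at 12 h, and levels at the 3 times are given on a scale set over all 48 libraries, with no test against 12 h. CDKN1A was at 243 ± 21.6 CPM at 6 h and 256 ± 44.2 CPM at 12 h (SD, n = 4), and MDM2 at 1039 ± 42.2 and 1133 ± 83.6 CPM. Both kept a level above that of 3 h in all 4 libraries (207 to 303 and 1062 to 1235 CPM at 12 h). ID3 went on from 3.55 ± 0.643 to 6.74 ± 1.39 CPM and KITLG from 88.3 ± 4.88 to 109.7 ± 13.8 CPM, with 12 h libraries at 5.26 to 8.43 and 98.5 to 129.5 CPM. SRSF2 was at 210.2 ± 9.6 and 205 ± 25 CPM, so its low level at 6 h was seen at 12 h too. HSPA5 was at 173 ± 11 and 144 ± 9.94 CPM, and DKC1 at 143 ± 4.83 and 117 ± 6.26 CPM. LDHA was at 643 ± 55.4 CPM at 3 h, 534 ± 23.6 at 6 h and 619 ± 52.2 at 12 h. NCBP1 was at 53740 ± 5905 CPM at 6 h and 34640 ± 4554 CPM at 12 h.

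**Figure D3:**
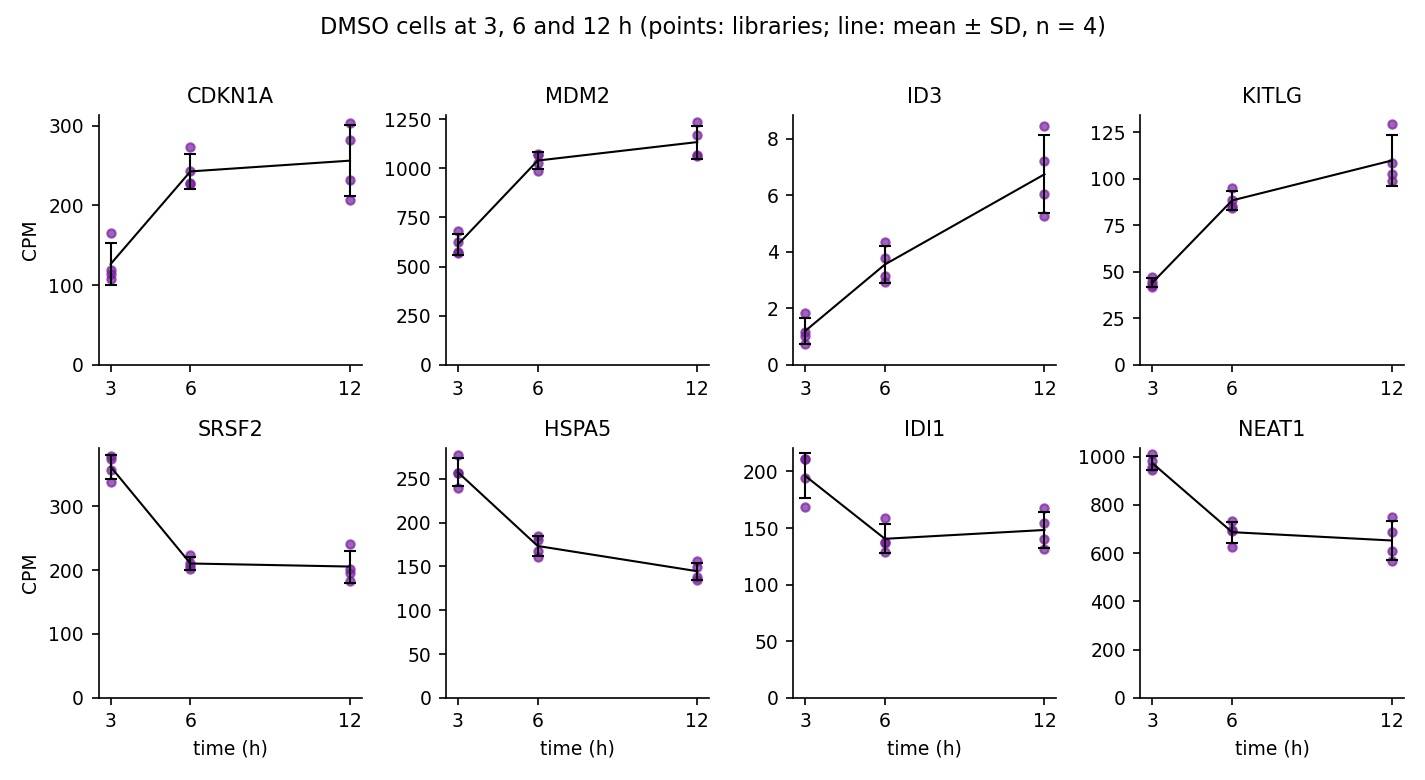
Levels (CPM, linear axes from 0) of 8 genes in DMSO cells against time in hours, with a point for each library and a line through the means ± SD (n = 4). The change between 3 h and 6 h is kept at 12 h for SRSF2 and NEAT1, and ID3 is higher again at 12 h.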

How the data were processed

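RNA of HEK293T cells was sequenced from rRNA-depleted TruSeq Stranded libraries on an Illumina NovaSeq instrument (paired-end, 150 bases) and demultiplexed with bcl2fastq. The study's reporting form also lists cutadapt, TopHat and Cufflinks. The counting tool, its strand setting, the build and the annotation are not given in the sources used here. The authors deposited raw counts per Ensembl gene, a table for each time, with the same 14685 genes and 48 libraries in all. The lowest count in any library was 2, so genes near 0 are not in these tables. Their log2 CPM and RUV-adjusted tables were normalized within each time and were not used here. GENCODE 29 types matched 14556 genes. The 4 DMSO libraries at 3 h and the 4 at 6 h were grouped by their labels.

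The 3 h and 6 h counts were joined by gene and fitted with edgeR 4.0.16 in R 4.3.3 (TMM scaling, filterByExpr, which removed 0 genes, and a robust quasi-likelihood F-test). P-values were adjusted by Benjamini-Hochberg across all genes, and a gene was called at an adjusted p of at most 0.05. Levels are TMM-scaled CPM. Changes of the other arms used the same fit on their own 8 libraries, and differences between arms the interaction of arm and time in 32 libraries. DESeq2 1.42.0, limma 3.58.1 (voom), other scalings and filters, a replicate block and leaving out each library were the alternatives, with GC and length offsets, leaving out replicate 3 of both times and leaving out each library of the other arms added after the data were seen. Figures used matplotlib 3.10.9 in Python 3.11.15 with pandas 2.3.3. RefSeq promoter windows matched 10456 genes. Single values per library were compared by exact permutation over 70 splits.

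The members and the 38 gene lists were chosen with earlier results of these data known. Genes were named by rule: the 15 largest called changes in each direction with a mean of at least 100 counts and no overlap between times, list members by size of change, the smallest interaction p-values, NCBP1 and the most abundant called genes. For the genes named by the largest called changes, the lack of overlap was thus set by the rule and is no separate result. For the lists the text gives examples rather than all that the rule names, and of the 55 genes ranked by the other parts of the rule 7 are not reported here. HSP90B1, CALR and DDX21 were added after their values were seen.

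The labels number the replicates but do not say that a number marks a shared batch. Deviations from the group mean correlated between same-numbered libraries of the 2 times at 0.12 to 0.555 over the 12210 genes with at least 100 counts, and at 0.0629 to 0.419 over all genes, against -0.441 to 0.274 and -0.31 to 0.166 for other pairs, so blocked counts are printed beside the counts that they moved by over 1.5 times. No pair of libraries agreed within sampling noise (chi-square per degree of freedom of 4.76 to 20.7). Tested on simulated data of the main comparison (14685 genes, 200 changed), the fit recovered 28, 70, 98 and 100% of changes of 0.25, 0.5, 1 and 2 on the log2 scale, and 5.73% of its calls were false. The simulated libraries were independent, without the correlation between same-numbered libraries, and the changed genes had a mean of at least 100 counts. The rates hold for that setting only.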

Additional observations from a re-analysis of the deposited data

Results flagged for a closer look

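Of 224 groups of 4 libraries tested, 15 had a library whose gap to its nearest neighbour exceeded Dixon's 95% limit, and chance gives about 1 in 20. Of these, 9 came from replicate 3. At 3 h, replicate 3 held the highest level of GDF15 (6.19 CPM against 2.31 to 2.73), SMAD7 (9.65 CPM against 7.41 to 7.66), FOSL1 (8.41 CPM against 5.68 to 6.01), ERBB3 (4.64 CPM against 3.33 to 3.48) and CYP27B1 (11.6 CPM against 10.3 to 10.5) and the lowest of DDX21 (521 CPM against 610 to 628) and EEF1A1 (2800 CPM against 3020 to 3070). At 6 h, replicate 3 was highest for JAG1 (24.3 CPM against 23 to 23.1) and lowest for CCND2 (237 CPM against 284 to 287). Others were NSDHL in 3 h replicate 2 (38.3 CPM against 33.2 to 33.7), CREB3L2 in 6 h replicate 1 (132 CPM against 143 to 145), H1-3 in 3 h replicate 1 (37.7 CPM against 33.4 to 33.8) KMT2C in 6 h replicate 4 (967 CPM against 930 to 934) and CMPK1 in 6 h replicate 2 (79.9 CPM against 73.5 to 74.1). The total count of 3 h replicate 1 (28328178) lay below 29543643 to 29747193 in the other 3 h libraries. These values enter the comparisons as they are.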

How the results depend on the processing

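The count of genes called between 6 h and 3 h was 2419. DESeq2, limma-voom, RLE scaling, total counts, library totals without NCBP1, no filter, a mean of at least 100 counts, 32 libraries and 48 libraries gave 2150 to 2695. It was 4543 with the replicate block, 1416 (without 3 h replicate 2) to 2601 on leaving out single libraries, 3811 with GC and length offsets and 3089 without replicate 3 of both times. The last 2 settings were chosen after the data were seen. All but 2 of the 2419 calls, 2417, were among the blocked calls. Genes whose change differed between DMSO and light alone numbered 0, 214 with DESeq2, 45 with the replicate block and 0 to 453 on leaving out single libraries of either arm (130 without DMSO 3 h replicate 3, 453 without light alone 6 h replicate 4). Between DMSO and T-REX they numbered 0, 31 with DESeq2, 3 with the block and 0 to 8 on leaving out single libraries (8 without DMSO 3 h replicate 3). Between DMSO and probe alone they numbered 0 in each setting. The cause of these shifts was not tested. Of 105 named genes 97 were called, 42 higher and 55 lower. Under 20 alternatives 0 of the called genes turned direction, and 82 of the 97 kept their call on leaving out any single library. With the spread of 32 libraries 16 lost it, namely BBC3, MYC, HSP90B1, CALR, ATF4, RPS14, PGK1, LDHA, HSPA8, MT-ND6, H2BC21, SLITRK5, MT-CO2, EEF1A1, GAPDH and RACK1, and with that of 48 libraries the same genes but BBC3, MT-ND6 and H2BC21. The 2937 genes with the lowest counts had 173 higher and 23 lower calls and the 2937 with the highest 225 and 594.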
